A study of Arabidopsis thaliana with 6 samples.

Results

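The plastid of Arabidopsis thaliana makes its own lipoyl cofactor and attaches it to its own pyruvate dehydrogenase complex, and the 10 genes described here encode that machinery. They are the plastid lipoyl synthase, both plastid octanoyltransferases and the E1 alpha, E1 beta, E2 and E3 subunits of the plastid complex, chosen by gene identifier from the 32833 genes of the deposited table. The study sequenced messenger RNA of whole seedlings aged 8 days from the phod2 mutant (3 libraries) and from the wild type, WT (3 libraries). The labels give the genotype of each library, leave the mutation in phod2 undescribed, and call the phod2 libraries LIP1 in their description field, a name that below stands only for the mitochondrial gene. Seedlings under high or low phosphate are mentioned for the series, with nothing on which supply a given library had. Libraries held 17996741 to 20951575 counted reads in phod2 and 17319308 to 22417595 in WT. All 10 genes passed the filter on low counts, as did 20169 genes in all. The series title links a plastid lipoyl synthase to phosphate homeostasis. The question here is how transcripts of the enzymes that make the cofactor, and of those that use it, differ in the mutant. Whether the plastid lipoyl synthase gene is itself mutated in phod2 is not said in the labels.

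Lipoylation in plastids begins with octanoyl-ACP, an intermediate of fatty acid synthesis bound to acyl carrier protein. An octanoyltransferase moves the octanoyl group onto a lysine of the E2 subunit, and lipoyl synthase, an iron-sulfur enzyme of the radical SAM family, then inserts sulfur atoms to make the lipoyl group. In the pyruvate dehydrogenase complex, E1 (alpha and beta chains) decarboxylates pyruvate, E2 carries the acetyl group on its lipoyl arm to coenzyme A, and E3 reoxidises the arm. The acetyl-CoA made in this way feeds fatty acid synthesis in the plastid.

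The catalytic sites of this chain can be read in the coding sequences, which are taken from the RefSeq TAIR10.1 genome and shown because they are the sites where the cofactor is made, carried and reoxidised. The first 2 lines show the radical SAM site of plastid LIP1P (codons 154 to 169 of 394, chr5:2712429-2712476, minus strand) and of its mitochondrial counterpart LIP1 (codons 130 to 145 of 374, chr2:8980023-8980136, plus strand, spliced from 2 exons), with the cysteine codons in capitals. The next 2 lines show the site of the lipoyl lysine in the E2 genes LTA2 (codons 87 to 103 of 480, chr3:9460890-9460940, plus strand) and EMB3003 (codons 71 to 87 of 465, chr1:12589824-12589874, minus strand), with the lysine codon in capitals. The last 2 lines show the redox-active cysteine pair, in capitals, of the E3 genes LPD1 (codons 117 to 133 of 623, chr3:5789896-5789946, minus strand) and LPD2 (codons 115 to 131 of 567, chr4:9156499-9156549, minus strand).
LIP1P: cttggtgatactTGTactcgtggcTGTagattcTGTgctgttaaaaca
LIP1: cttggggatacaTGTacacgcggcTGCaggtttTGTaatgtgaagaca
LTA2: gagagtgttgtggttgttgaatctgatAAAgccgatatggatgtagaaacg
EMB3003: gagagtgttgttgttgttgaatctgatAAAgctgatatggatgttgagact
LPD1: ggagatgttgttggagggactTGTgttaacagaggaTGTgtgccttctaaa
LPD2: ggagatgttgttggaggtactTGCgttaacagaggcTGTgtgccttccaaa

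LIP1P was the member that differed most between the genotypes, and its transcript fell by 40.0% in phod2. LIP1P (AT5G08415, chromosome 5, positions 2710781 to 2713255, minus strand) had 13.95, 14.23 and 12.92 FPKM in phod2 replicates 1 to 3, against 22.26, 20.91 and 23.18 FPKM in WT replicates 1 to 3 (FPKM is the count scaled by exon length and by the library total). All 3 phod2 libraries lay below all 3 WT libraries. The log2 fold change of phod2 over WT was -0.74 ± 0.06 (SE, 95% interval -0.87 to -0.61, edgeR adjusted p = 4.7e-15). Unless another setting is named, log2 fold changes and percent falls come from edgeR, which also applies a TMM scaling factor to each library total. The factors were 1.012 to 1.017 in phod2 and 0.985 to 0.987 in WT, which puts fold changes slightly below ratios of printed FPKM. Of the 20169 tested genes, 1721 had a lower log2 fold change than LIP1P. The labels do not say whether LIP1P is itself the gene mutated in phod2. Reads were summed over the exons of the gene, so these values say nothing of whether the remaining transcript carries a mutation. They come from seedlings whose root hair markers and most endodermis markers were lower, as given in a later paragraph.

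Of the 10 genes 4 passed an adjusted p of 0.05 in edgeR's quasi-likelihood test, and all 4 were lower in phod2. Across all tested genes 45.5% passed in either direction, 24.6% as lower and 20.9% as higher in phod2, so the share of members passing (4 of 10) is close to that of the table as a whole. None of the 10 was changed 2-fold or more, a size passed by 7.51% of tested genes. The count at 2-fold was also 0 in DESeq2 and in limma, and 4 members had an unadjusted p under 0.05 in edgeR, the same 4. The median log2 fold change was -0.04 over the 10 genes and 0.01 over all tested genes. In 3 of the 10 genes the libraries of the genotypes did not overlap, each time with phod2 lower. Over all tested genes 54.1% did not overlap, and 23.3% did not overlap with phod2 lower.

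**Figure D1:**
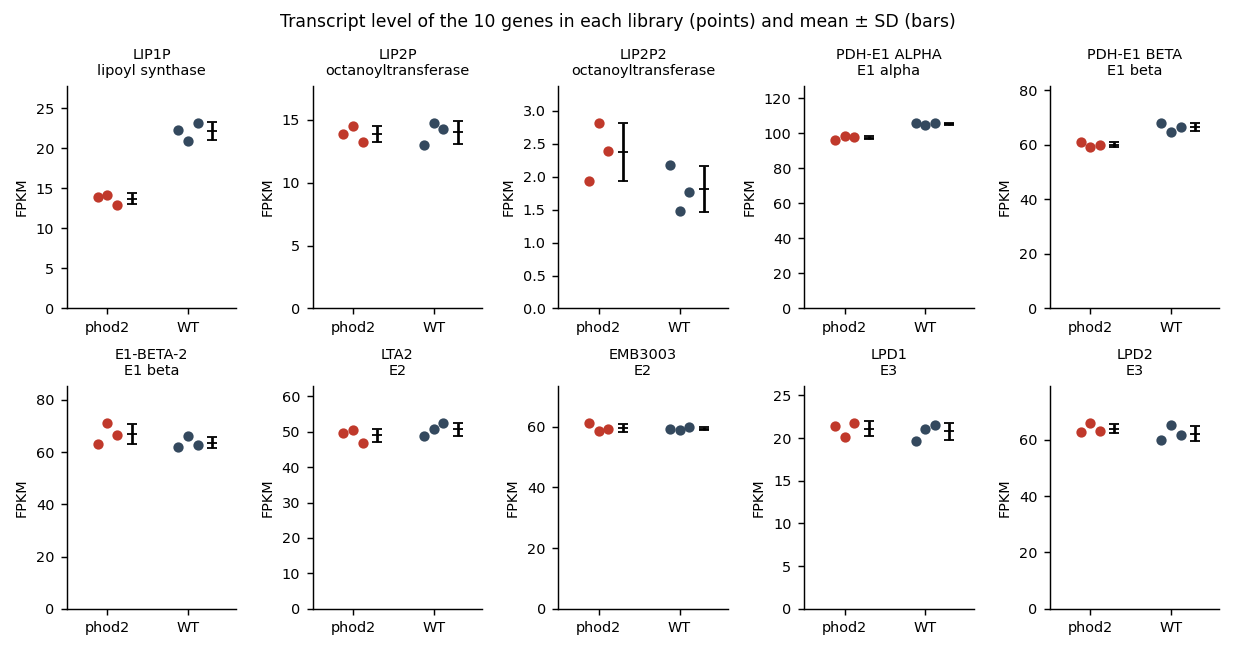
FPKM of each of the 10 genes in the 3 phod2 libraries (red points) and the 3 WT libraries (dark points), with the mean and SD of each group beside them and every axis starting at 0. The groups are apart for LIP1P, PDH-E1 ALPHA and PDH-E1 BETA, and overlap for the other 7 genes.

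The octanoyltransferase genes, whose enzymes act just before lipoyl synthase, did not pass the test. LIP2P (AT4G31050, chromosome 4, positions 15114250 to 15115633, plus strand) had 13.87, 14.54 and 13.27 FPKM in phod2 and 13.00, 14.77 and 14.25 FPKM in WT. Its log2 fold change was -0.05 (95% interval -0.22 to 0.12, edgeR adjusted p = 0.655). LIP2P2 (AT1G47578, chromosome 1, positions 17484348 to 17485470, plus strand) was the least abundant of the 10 genes, with 1.94, 2.82 and 2.39 FPKM in phod2 and 2.18, 1.48 and 1.77 FPKM in WT. It rested on 30 to 47 reads per phod2 library and 22 to 42 reads per WT library, and its interval was correspondingly wide (log2 fold change 0.34, 95% interval -0.13 to 0.82, edgeR adjusted p = 0.248). A rise of LIP2P2 of up to 0.82 on the log2 scale lies within that interval at this depth. Summed over both genes, the octanoyltransferase transcript was mostly LIP2P, at 87.7%, 83.8% and 84.7% of the pair's FPKM in phod2 and 85.6%, 90.9% and 89.0% in WT.

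The genes of E1, the subunit that decarboxylates pyruvate, fell by small amounts in 2 of 3 cases. PDH-E1 ALPHA (AT1G01090, chromosome 1, positions 47234 to 49304, minus strand) encodes the alpha chain, the single gene of its kind here, and was the most abundant of the 10. It had 96.45, 98.32 and 97.95 FPKM in phod2, against 105.99, 104.88 and 105.75 FPKM in WT. The groups did not overlap, and the log2 fold change was -0.15 ± 0.03 (SE, 95% interval -0.21 to -0.10, edgeR adjusted p = 7.8e-06). With TMM scaling the level fell by 10.2%. A beta chain gene, PDH-E1 BETA (AT1G30120, chromosome 1, positions 10584105 to 10586680, minus strand), had 61.16, 59.19 and 59.83 FPKM in phod2, against 68.02, 64.83 and 66.51 FPKM in WT. These groups did not overlap either, and the log2 fold change was -0.19 ± 0.03 (SE, 95% interval -0.26 to -0.12, edgeR adjusted p = 7.6e-06). With TMM scaling the level fell by 12.3%. The other beta chain gene, E1-BETA-2 (AT2G34590, chromosome 2, positions 14568802 to 14571143, minus strand), had 63.23, 71.07 and 66.40 FPKM in phod2 and 62.12, 66.05 and 62.80 FPKM in WT. Its groups overlapped, and its log2 fold change was 0.03 (95% interval -0.04 to 0.11, edgeR adjusted p = 0.492), so that its interval and that of PDH-E1 BETA do not meet. The coding sequences of the beta chain genes are 85.4% identical over their aligned bases.

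E1-BETA-2 was the more abundant beta chain gene in all 3 phod2 libraries and in WT replicate 2, and PDH-E1 BETA in WT replicates 1 and 3. PDH-E1 BETA made up 49.2%, 45.4% and 47.4% of the beta chain FPKM in phod2, against 52.3%, 49.5% and 51.4% in WT. Its share was lower in each phod2 library than in each WT library, with a difference of -3.74 percentage points between the means. The exact permutation test gave p = 0.10, the smallest that 3 against 3 libraries allow (two-sided, 0.40 after adjustment over 4 pairs). The summed beta chain level was 124.4, 130.3 and 126.2 FPKM in phod2 and 130.1, 130.9 and 129.3 FPKM in WT, and these overlapped. The alpha chain gene had 0.775, 0.755 and 0.776 times that sum in phod2 and 0.814, 0.801 and 0.818 times in WT, without overlap (exact permutation p = 0.10, two-sided, 0.175 after adjustment over 7 ratios and sums chosen after the values had been seen).

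The E2 genes, whose proteins carry the lipoyl arm that LIP1P completes, differed little. LTA2 (AT3G25860, chromosome 3, positions 9460433 to 9463013, plus strand) had 49.55, 50.51 and 46.81 FPKM in phod2 and 48.85, 50.63 and 52.42 FPKM in WT. Its log2 fold change was -0.09 ± 0.04 (SE, edgeR adjusted p = 0.039), the groups overlapped, and the call was lost in DESeq2 (adjusted p = 0.133), in limma on log2(FPKM + 1) (adjusted p = 0.341), with library totals as the scaling and without any one of phod2 replicate 3, WT replicate 2 and WT replicate 3. EMB3003 (AT1G34430, chromosome 1, positions 12587726 to 12590223, minus strand) had 61.19, 58.58 and 59.21 FPKM in phod2 and 59.24, 58.81 and 59.86 FPKM in WT. Its log2 fold change was -0.03 (95% interval -0.10 to 0.03, edgeR adjusted p = 0.445). Without TMM factors the mean FPKM of EMB3003 was 59.66 in phod2 and 59.30 in WT, so the sign depends on the scaling. Together the E2 genes had 110.7, 109.1 and 106.0 FPKM in phod2, against 108.1, 109.4 and 112.3 FPKM in WT. LTA2 made up 45.1% ± 1.11 of the pair in phod2 and 46.0% ± 0.77 in WT (SD, n = 3 each, exact permutation p = 0.30). The coding sequences of this pair are 67.5% identical, the least of the 4 plastid pairs.

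The E3 genes encode dihydrolipoyl dehydrogenase, which reoxidises the lipoyl arm, and their values lay on top of each other in the genotypes. LPD1 (AT3G16950, chromosome 3, positions 5786298 to 5790536, minus strand) had 21.42, 20.08 and 21.76 FPKM in phod2 and 19.71, 21.12 and 21.51 FPKM in WT (log2 fold change -0.02, 95% interval -0.12 to 0.08, edgeR adjusted p = 0.791). LPD2 (AT4G16155, chromosome 4, positions 9153570 to 9157133, minus strand) had 62.94, 65.97 and 63.16 FPKM in phod2 and 59.84, 65.33 and 61.59 FPKM in WT (log2 fold change 0.00, 95% interval -0.07 to 0.07, edgeR adjusted p = 0.973). In this fit both intervals lie within 0.12 of 0 on the log2 scale, and they leave out uncertainty in the scaling. LPD1 had a log2 fold change of 0.023 with library totals as the scaling and -0.056 without WT replicate 1. LPD1 made up 24.8% ± 1.26 of the E3 transcript in phod2 and 25.0% ± 0.76 in WT (SD, n = 3 each, exact permutation p = 0.80).

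**Figure D2:**
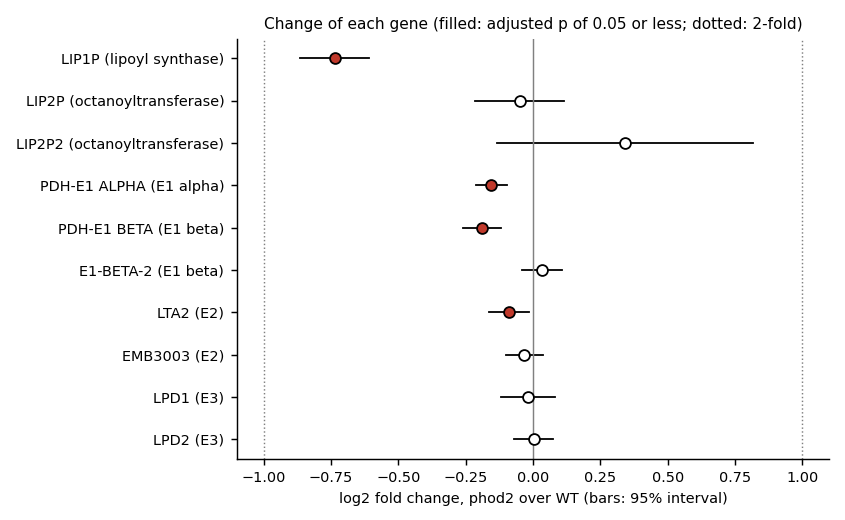
Log2 fold change of phod2 over WT for each gene (points) with its 95% interval (bars). Lipoyl synthase is listed first, then the octanoyltransferases and the E1, E2 and E3 genes. Filled points passed an adjusted p of 0.05 and dotted lines mark 2-fold. LIP1P stands at -0.74, PDH-E1 BETA at -0.19, PDH-E1 ALPHA at -0.15 and LTA2 at -0.09, and the interval of LIP2P2 is the widest.

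Ranked by mean FPKM, 4 of the 10 genes (PDH-E1 ALPHA, EMB3003, LTA2 and LIP2P2) held the same place in both genotypes, while LIP1P and PDH-E1 BETA each stood 2 places lower in phod2. In phod2 the order was PDH-E1 ALPHA (97.6 FPKM), E1-BETA-2 (66.9), LPD2 (64.0), PDH-E1 BETA (60.1), EMB3003 (59.7), LTA2 (49.0), LPD1 (21.1), LIP2P (13.9), LIP1P (13.7) and LIP2P2 (2.38). In WT it was PDH-E1 ALPHA (105.5 FPKM), PDH-E1 BETA (66.5), E1-BETA-2 (63.7), LPD2 (62.3), EMB3003 (59.3), LTA2 (50.6), LIP1P (22.1), LPD1 (20.8), LIP2P (14.0) and LIP2P2 (1.81). LIP1P thus stood beside LIP2P in phod2, with overlapping libraries, and beside LPD1 in WT, again with overlapping libraries. Other neighbours whose libraries overlapped were E1-BETA-2 with LPD2 and PDH-E1 BETA with EMB3003 in phod2, and PDH-E1 BETA with E1-BETA-2, E1-BETA-2 with LPD2 and LPD2 with EMB3003 in WT.

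The level of lipoyl synthase transcript relative to its partners and to mitochondrial LIP1 shows the same difference without reference to library scaling. These ratios were chosen after the values had been seen. LIP1P had 0.126, 0.130 and 0.122 times the summed FPKM of the E2 genes in phod2, against 0.206, 0.191 and 0.206 times in WT. Relative to the summed octanoyltransferases it had 0.882, 0.820 and 0.825 times their FPKM in phod2 and 1.47, 1.29 and 1.45 times in WT. Relative to mitochondrial LIP1, the lipoyl synthase of the other organelle, it had 0.217, 0.214 and 0.198 times the FPKM in phod2 and 0.370, 0.349 and 0.371 times in WT. No library of phod2 reached the lowest WT library in any of these ratios. Each exact permutation test gave p = 0.10, the smallest possible here (two-sided, 0.175 after adjustment over 7 ratios and sums). All these ratios share LIP1P, whose own FPKM did not overlap between the genotypes, so the tests add no separate support.

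**Figure D3:**
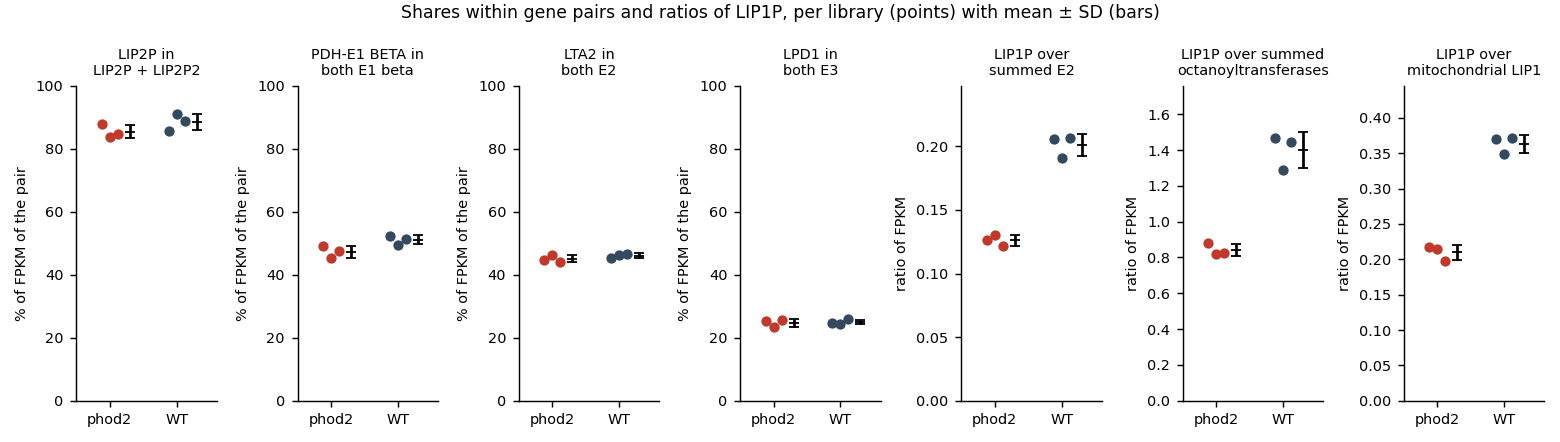
Share of the first gene of each pair in the pair's FPKM (left 4 panels, in percent) and LIP1P relative to its partners and mitochondrial LIP1 (right 3 panels, ratios of FPKM). Points are phod2 libraries (red) and WT libraries (dark), with mean and SD. The LIP1P ratios and the PDH-E1 BETA share are apart between the genotypes, and the other 3 shares overlap.

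**Figure D4:**
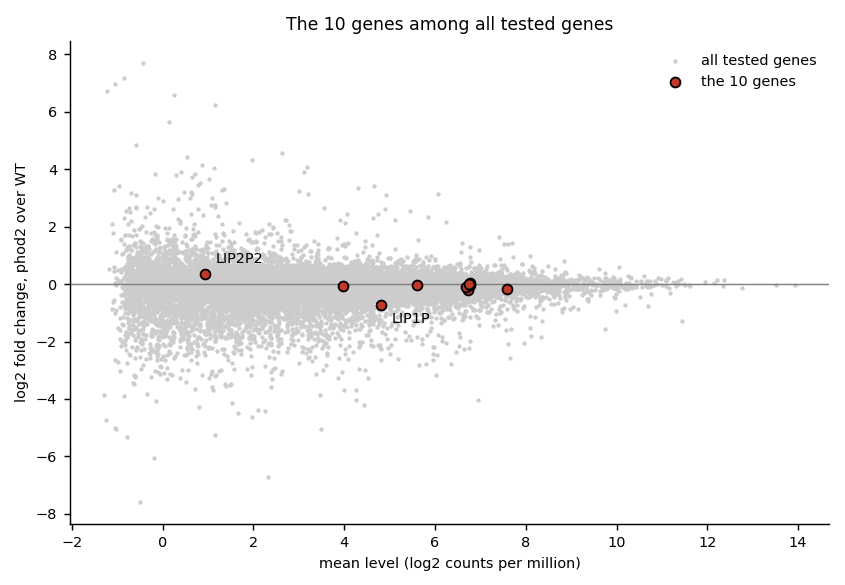
Log2 fold change of phod2 over WT against mean level (log2 CPM, the count scaled by the library total) for the 20169 tested genes (grey) and the 10 genes (red). Apart from LIP1P at -0.74 and the low LIP2P2 at 0.34, the members lie within 0.19 of 0 on the log2 scale.

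Plants have a second, mitochondrial lipoylation and pyruvate dehydrogenase system, and its transcripts moved in both directions. Among 15 tested genes 7 were lower, 2 were higher and 6 missed the threshold, with a median log2 fold change of -0.03, and the split became 5 lower and 5 higher with library totals as the scaling. Over all tested genes 24.6% were called lower and 20.9% higher. No gene of this list was changed 2-fold in edgeR, DESeq2 or limma, and 10 had an unadjusted p under 0.05 in edgeR. Mitochondrial LIP1 (AT2G20860), the counterpart of LIP1P, had 65.3 ± 1.19 FPKM in phod2 and 60.9 ± 1.37 FPKM in WT (SD, n = 3 each), a log2 fold change of 0.06 that did not pass (edgeR adjusted p = 0.126). It passed as higher with library totals as the scaling (log2 fold change 0.10, edgeR adjusted p = 0.0073). IAR4, an E1 alpha gene, fell to 48.3 ± 1.31 FPKM in phod2, against 67.0 ± 2.36 FPKM in WT (log2 fold change -0.51 ± 0.04, SE, edgeR adjusted p = 2.7e-18). The E2 gene AT3G13930 fell by 0.37 on the log2 scale. MTKAS, the mitochondrial ketoacyl-ACP synthase, rose by 0.30 ± 0.08, and MTLPD1, a mitochondrial E3 gene, by 0.13 ± 0.02 (SE). The plastid and mitochondrial systems were not tested against each other.

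Genes that supply the plastid complex with pyruvate, or make acetyl-CoA from acetate, moved in both directions. In this list of 9 genes 5 fell, 1 rose and 3 missed the threshold, with a median log2 fold change of -0.13, and limma on log2(FPKM + 1) called 3 lower and 1 higher. Beside this, 24.6% of all tested genes fell and 20.9% rose in edgeR. ENO1, the plastid enolase, fell to 21.1 ± 1.17 FPKM in phod2, against 28.02 ± 1.00 FPKM in WT (log2 fold change -0.45 ± 0.05, SE, edgeR adjusted p = 2.3e-11). PPT2, a phosphoenolpyruvate translocator, had 1.86 ± 0.318 FPKM in phod2 and 2.52 ± 0.489 FPKM in WT, with a log2 fold change of -0.49 ± 0.18 (edgeR adjusted p = 0.021) and overlapping libraries. PKPB1, a subunit of plastid pyruvate kinase, rose by 0.11 ± 0.03 (SE) on the log2 scale.

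Downstream, among plastid fatty acid synthesis genes up to the octanoyl-ACP from which lipoate is made, 16 of 17 were tested, of which 8 fell, none rose and 8 missed the threshold (median log2 fold change -0.07). The 8 of 16 called stand beside 45.5% of all tested genes called in either direction and 24.6% called lower. None of the 16 was higher in edgeR even at an unadjusted p under 0.05, and none was called higher in DESeq2 or limma. BCCP2, a biotin carrier subunit of acetyl-CoA carboxylase, fell to 18.6 ± 0.506 FPKM in phod2, against 26.1 ± 0.290 FPKM in WT (log2 fold change -0.53 ± 0.06, SE, edgeR adjusted p = 4.1e-12). ACP1, an acyl carrier protein, fell by 0.37 ± 0.06 (SE). With library totals as the scaling 5 genes of this list passed instead of 8.

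Lipoyl synthase needs iron-sulfur clusters, which plastids assemble themselves. Of 12 genes of plastid cluster assembly 11 were tested, of which 3 rose, 1 fell and 7 missed the threshold (median log2 fold change 0.07). SUFE1, the gene not tested, had 0 reads in every library, and whether it was unexpressed or its reads went uncounted was not checked. Of all tested genes 45.5% were called, 20.9% as higher and 24.6% as lower. SUFE2, an activator of the cysteine desulfurase, rose to 6.41 ± 1.06 FPKM in phod2, against 4.53 ± 0.231 FPKM in WT (log2 fold change 0.47 ± 0.13, SE, edgeR adjusted p = 0.0019). NFU3, a cluster carrier, rose by 0.28 ± 0.05 (SE), and SUFB, a scaffold subunit, fell by 0.12 ± 0.03 (SE), a call not made in limma, where 8 genes were higher and none lower. With library totals as the scaling 8 genes of this list passed instead of 4, of which 7 were higher and 1 lower.

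**Figure D5:**
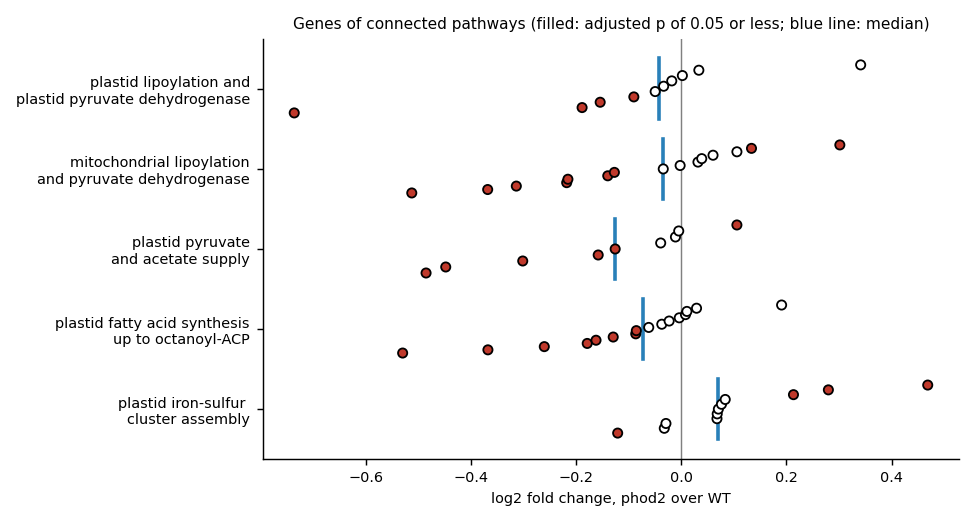
Log2 fold change of phod2 over WT for every tested gene of the 10 members and of 4 connected gene lists, 1 point a gene; filled points passed an adjusted p of 0.05 and blue lines are medians. LIP1P is the lowest point of all 5 rows at -0.74, and no gene reaches 2-fold.

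The seedlings of the genotypes also differed in markers of root cell types, and in bulk RNA fewer cells of a type cannot be told apart from less RNA per cell. The summed level of 9 root hair markers was 15.0 to 16.5 FPKM in phod2 and 44.9 to 50.6 FPKM in WT, and all 9 fell in edgeR. The summed level of 9 endodermis markers was 42.9 to 45.8 FPKM in phod2 and 106.8 to 116.4 FPKM in WT, and 7 of 9 fell. The others, SCR and ESB1, did not pass and had log2 fold changes of 0.10 and 0.65. SCR had mean levels of 16.8 FPKM in phod2 and 15.3 FPKM in WT, and ESB1 0.53 and 0.32 FPKM. The summed level of 6 green shoot markers was 28890 to 29180 FPKM in phod2 and 28790 to 29100 FPKM in WT, and 1 of them rose and 3 fell. RBCS1A and LHCB1.3 weigh most in that sum, with means of 12442 and 9524 FPKM in phod2. Among the others GAPB rose by 0.18 and LHCB2.1 fell by 0.36 on the log2 scale. Over all tested genes 24.6% were called lower and 20.9% higher. No marker was at 0 in all libraries. The part of the root markers in the lower LIP1P, PDH-E1 ALPHA and PDH-E1 BETA values was not tested.

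Around the annotated gene starts of the members, from 250 bases before to 50 bases after, 2 known plant motifs were searched on both strands. They are P1BS (GNATATNC), the element bound by the phosphate starvation regulator PHR1, and the AW box (CNTNG, then 7 bases of any kind, then CG), the element bound by WRI1, a regulator of glycolysis and fatty acid synthesis genes. P1BS was found in 1 member, LIP1P, and in 6.21% of 20091 windows of tested genes. The AW box was found in 5 members (LIP1P, LIP2P2, PDH-E1 ALPHA, PDH-E1 BETA and LPD2) and in 11.7% of those windows. Of these members LIP2P2 and LPD2 did not pass the test for a change. In LIP2P2 a match at bases 17 to 30 runs into the coding sequence, which starts at base 18. In LPD2 the annotated coding sequence starts at base 1, the gene start itself. In LIP1P the P1BS match lies at bases 34 to 41 after the gene start, before the first coding base, and it overlaps the AW box match, which is on the opposite strand at bases 33 to 46. A match is a description of letters and not evidence of binding. The sites of the 3 members whose libraries did not overlap are shown with the match in capitals, on the strand of the gene: LIP1P (P1BS, chr5:2713206-2713233), PDH-E1 ALPHA (AW box, chr1:49365-49394) and PDH-E1 BETA (AW box read on the opposite strand, chr1:10586662-10586691), all minus strand in TAIR10.1.
LIP1P: tggtagttggcGGATATCCcaaagttgc
PDH-E1 ALPHA: gaaaaaaaCATTGGTGTTAACGaagaaggg
PDH-E1 BETA: catgagttCGATGAAAACAATGtaaacatg

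The tested genes whose profile over the 6 libraries lay closest to that of LIP1P were AT1G12450, AT2G44230 and XTH31. Likeness was the root mean square distance of log2 CPM, centred for each gene, and was 0.0381, 0.0387 and 0.0440. AT1G12450 had 8.22, 7.98 and 7.77 FPKM in phod2 and 12.89, 12.44 and 13.08 FPKM in WT. XTH31, which encodes a xyloglucan-modifying enzyme of the cell wall, had 27.56, 28.12 and 27.34 FPKM in phod2 and 46.08, 43.94 and 45.75 FPKM in WT. None of these 3 genes is a member of the lists above.

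Reads shared between gene copies could blur the values of the pairs, and such sharing was not measured. The best match of each member's transcript to another gene had 87.1% identity or less. It spanned 92.7% of the LPD2 transcript at 87.1% identity and 91.3% of LIP2P2 at 83.1%. For PDH-E1 BETA it was 73.4% at 83.5%, and for LTA2 31.0% at 70.1%. No alignment at 95% identity or more over its whole length exceeded 57 bases. Alike stretches inside longer alignments of lower identity were not measured. LIP1P had no match to another transcript and no overlap with another gene. The largest overlap of a member with a neighbouring gene was 2.1% of its length, in EMB3003. Of the genes named from the connected lists, BCCP2, ENO1, SUFB and PKPB1 had longer alignments at 95% identity or more. SUFB and PKPB1 have stretches of 84 and 78 bases at 95% identity or more with another gene. BCCP2 overlaps AT5G15520 on the opposite strand, with 100% identity over 12.3% of its transcript and a stretch of 192 bases, and ENO1 overlaps AT1G74035 on the opposite strand over 11.2% of its length. Whether reads were counted by strand is not given in the sources used here, so reads of these partners cannot be told apart and the BCCP2 and ENO1 values are uncertain to that extent.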

How the data were processed

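The authors deposited whole-number counts per gene and library, with no normalization, and FPKM, per the file headers. Recomputing FPKM from count, exonic size and library total gave the deposited FPKM to within 0.005. The genome build named in the submitters' processing notes is mm10, of the mouse. For the aligner, the counter and strand use, nothing is given in the sources used here. Of the table's identifiers 32548 are in TAIR10.1, 99.95% of them with identical start and end. Counts were tested with edgeR 4.0.16 (R 4.3.3, filterByExpr, TMM, glmQLFit and glmQLFTest, genotype as the only term, Benjamini-Hochberg adjustment over all tested genes). This step was tried on simulated counts with 200 changed genes. Far more genes passed in the real data, so the trial does not cover their setting. DESeq2 1.42.0 and limma 3.58.1 served as alternatives. Transcripts were compared with BLAST 2.17.0. The study describes biological replicates, and same-genotype libraries gave a chi-square per degree of freedom of 1.57 to 2.07, so none was a copy of another. The p-values reflect the spread among these libraries (common biological coefficient of variation 2.83%). Members and lists were chosen with earlier results of these data known. From each connected list, at most 2 genes per direction with the largest change past the threshold are named, and mitochondrial LIP1 was added by its role.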

Additional observations from a re-analysis of the deposited data

How the results depend on the processing

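Under 16 alternatives the members past the adjusted p numbered 3 or 4, all lower in phod2, and 3 to 4 without single libraries. LIP1P (log2 fold change -0.77 to -0.65), PDH-E1 ALPHA (-0.16 to -0.11) and PDH-E1 BETA (-0.20 to -0.14) passed in all of them. LTA2 missed the threshold with library totals (-0.049, adjusted p = 0.272), upper quartile factors (-0.073, 0.0989), DESeq2 (-0.086, 0.133), limma on log2(FPKM + 1) (-0.048, 0.341) and on log2(FPKM + 0.1) (-0.049, 0.344), and ranged from -0.117 to -0.055 without single libraries. Values near 0 changed sign: EMB3003 was 0.0076 with library totals, 0.0083 and 0.0084 in the limma fits, and LPD1 was 0.023, 0.020 and 0.021. Without single libraries E1-BETA-2 ranged from -0.014 to 0.071, LPD1 from -0.056 to 0.015, LPD2 from -0.025 to 0.036, and the LPD1 share difference from -0.67 to 0.48 percentage points. Counts past the threshold moved to 5 with library totals in the fatty acid list, and to 8 (library totals and limma on log2(FPKM + 1)) and 7 (limma on log2(FPKM + 0.1)) in the iron-sulfur list. LIP2P2 was not tested where 5 FPKM was required. With a replicate block LTA2 had -0.092 (adjusted p = 0.0517) and LPD2 -0.00034. Same-numbered libraries did not deviate together (correlations -0.021, 0.0097 and -0.0078), so the numbers were not treated as pairs. Depth limits LIP2P2 most.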
